A study of Mus musculus with 2 samples.

Results

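The loci described here are those of 3 mouse genes for DNA-binding subunits of the PTF1 complex, Ptf1a, Rbpjl and Rbpj. Each locus was a fixed window of the mouse genome (build mm9): 250 kb on chromosome 2 from 19250001 to 19500000 for Ptf1a, 150 kb on chromosome 2 from 164150001 to 164300000 for Rbpjl, and 250 kb on chromosome 5 from 53750001 to 54000000 for Rbpj. Of the 30691 sites in the authors' list of Ptf1a binding sites, 20 lay in these windows: 11 at Ptf1a, 6 at Rbpjl and 3 at Rbpj. The data came from 266.6 cells, a mouse pancreatic line of strain C57BL/6 X SJL, derived from an acinar tumour, that the study used in place of early pancreatic progenitors. Chromatin immunoprecipitation followed by sequencing (ChIP-seq) gave 1 Ptf1a library, made from 2 pooled immunoprecipitations at passage 26, and 1 input library of chromatin from the same line without antibody. The labels name no treatment of the cells other than fixing in 1% formaldehyde for 10 min, and no library from cells without Ptf1a was analysed here. With no expression measured, the labelled cell type could not be checked against marker genes. The question of the design was where Ptf1a binds, for comparison with genes expressed in embryonic pancreatic buds.

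Ptf1a is a basic helix-loop-helix protein that is needed for the pancreas to form and, later, for acinar cells to make digestive enzymes. In the PTF1 complex it pairs with an E protein to bind an E-box, a short motif with the letters CANNTG, while an RBP subunit binds a TC-box beside it. Rbpj, better known as the DNA-binding partner of Notch, is the RBP subunit in early pancreatic progenitors, and its relative Rbpjl takes that place in acinar cells. Regulatory DNA through which the complex maintains its own Ptf1a and Rbpjl genes has been described in the mouse.

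The letters of both motifs are shown first in the promoters of the genes themselves, to set out which promoters hold them side by side. The 250 bases before each gene's start were taken from RefSeq (build GRCm38.p6, plus strand, chromosome 2 for Ptf1a and Rbpjl, chromosome 5 for the first of the 2 listed starts of Rbpj). Capitals mark CANNTG and the TC-box core TTCCCA, which reads TGGGAA on the opposite strand.
Ptf1a: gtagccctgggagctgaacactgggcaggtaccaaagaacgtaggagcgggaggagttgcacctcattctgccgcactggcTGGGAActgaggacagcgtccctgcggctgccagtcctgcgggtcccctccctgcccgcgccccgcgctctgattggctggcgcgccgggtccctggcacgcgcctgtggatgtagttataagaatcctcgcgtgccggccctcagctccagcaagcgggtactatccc
Rbpjl: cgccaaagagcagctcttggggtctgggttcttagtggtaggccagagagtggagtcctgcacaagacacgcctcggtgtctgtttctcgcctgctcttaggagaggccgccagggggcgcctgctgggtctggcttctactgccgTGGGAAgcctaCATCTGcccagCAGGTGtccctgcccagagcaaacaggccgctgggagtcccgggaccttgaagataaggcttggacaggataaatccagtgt
Rbpj: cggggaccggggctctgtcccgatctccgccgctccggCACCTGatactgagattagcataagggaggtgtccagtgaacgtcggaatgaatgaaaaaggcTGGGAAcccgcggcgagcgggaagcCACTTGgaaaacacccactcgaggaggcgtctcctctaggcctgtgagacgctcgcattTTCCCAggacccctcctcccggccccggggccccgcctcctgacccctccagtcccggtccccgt
The Rbpjl promoter held TGGGAA followed by CATCTG after a gap of 5 bases and by CAGGTG after a gap of 16 bases. On the opposite strand each is an E-box followed by TTCCCA. Rbpj held TGGGAA and CACTTG in the same order at a gap of 19 bases, and Ptf1a held 1 TGGGAA and no CANNTG. The stretch before the second listed start of Rbpj, which overlaps the first, held 1 TTCCCA and no CANNTG. Of 32851 RefSeq promoter stretches of this length, 66.2% held CANNTG, 21.6% held TTCCCA on either strand, and 2.55% held CANNTG followed by TTCCCA on the same strand within 25 bases. Gaps of 5 and 16 bases occurred together in 1 stretch, that of Rbpjl, and these 2 gaps were picked after its sequence was seen. The matches are letters only. The listed sites use mm9 and no mm9 genome or annotation was used here, so no listed site was placed relative to a promoter, a known enhancer, an exon or an intron, and the E protein genes Tcf3, Tcf12 and Tcf4 were not analysed.

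Depth was 28502488 placed reads for ChIP and 27959618 for input. Reads that repeated the position and strand of an earlier one made up 10.2% of ChIP and 3.29% of input reads. With 1 library per group no value has a replicate: each test below compares these 2 libraries and not conditions, and each interval (95%) covers counting error only. Amplified copies cannot be told from separate molecules, and so the intervals are too narrow. A ratio is ChIP reads per input read divided by 0.971, the same quotient outside all listed sites.

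At Ptf1a's own locus, ChIP reads piled up at several separate places. The 11 listed sites, at 0.0440 sites per kb (exact Poisson interval 0.0220 to 0.0787), spread over 142 kb, and 10 of them fell in 3 groups whose neighbours lay within 12 kb. The height the authors gave each listed site ran here from 21 to 246 with a median of 36, which is also the median of the whole list. The next listed sites on the chromosome were 405 kb before the first and 1376 kb after the last, so the 250 kb stretches on either side of the window held none.

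The highest Ptf1a site was at 19412121, with a height of 246 that 399 of the 30691 listed sites exceeded. Its 100 bp span held 285 ChIP reads and 1 input read, a ratio of 293 (exact limits 52.3 and 11633, adjusted p = 4.92e-84 in the exact binomial test). Within 100 bp to each side there were 528 ChIP and 4 input reads. The ChIP library was thus far above the input at this point, and the upper limit of the ratio rests on a single-digit input count. The 1 kb around it (500 bp to each side) held 660 ChIP reads, or 15.7% of all ChIP reads of the window (Wilson interval 14.6 to 16.8%), against 13 input reads or 0.475% (0.278 to 0.810%). A second, lower site 323 bp before it, at 19411798, had a height of 48, with 28 reads from ChIP and 0 from input (at least 9.61-fold higher if 3 input reads are assumed).

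Before the highest site, a group of 4 lay within 2.63 kb, from 19351705 to 19354339. Its highest member, at 19352473, had a height of 85, above 83.1% of the list. It held 60 ChIP reads against 0 input reads in the span, at least 20.6-fold higher, and 114 against 0 within 100 bp to each side. The site at 19353699 had a height of 46, with 35 ChIP reads and 1 input read (ratio 36.0, 6.06 to 1464). The outer sites of the group were low, with heights of 22 and 23 and 17 and 12 ChIP reads against 7 and 4 input reads. In their spans these did not pass the test (adjusted p = 0.0588 and 0.0722, exact binomial test). Over its whole length the group held 374 ChIP and 51 input reads (ratio 7.55, 5.63 to 10.3).

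The third group, 4 sites within 10.4 kb from 19368001 to 19378356, was low and broad. Heights ran from 21 to 36. The site at 19368001 had both the lowest height and the lowest ratio of the window, with 13 ChIP against 9 input reads there (ratio 1.49, 0.588 to 3.94, adjusted p = 0.486 in the exact binomial test). ChIP reads stood above input across much of the group, also between its sites, at 472 against 147 reads (ratio 3.31, 2.74 to 4.01). The remaining site, at 19270181, lay alone, 81.5 kb from its nearest neighbour, with a height of 39 and 27 ChIP against 2 input reads (ratio 13.9, 3.49 to 121).

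**Figure D1:**
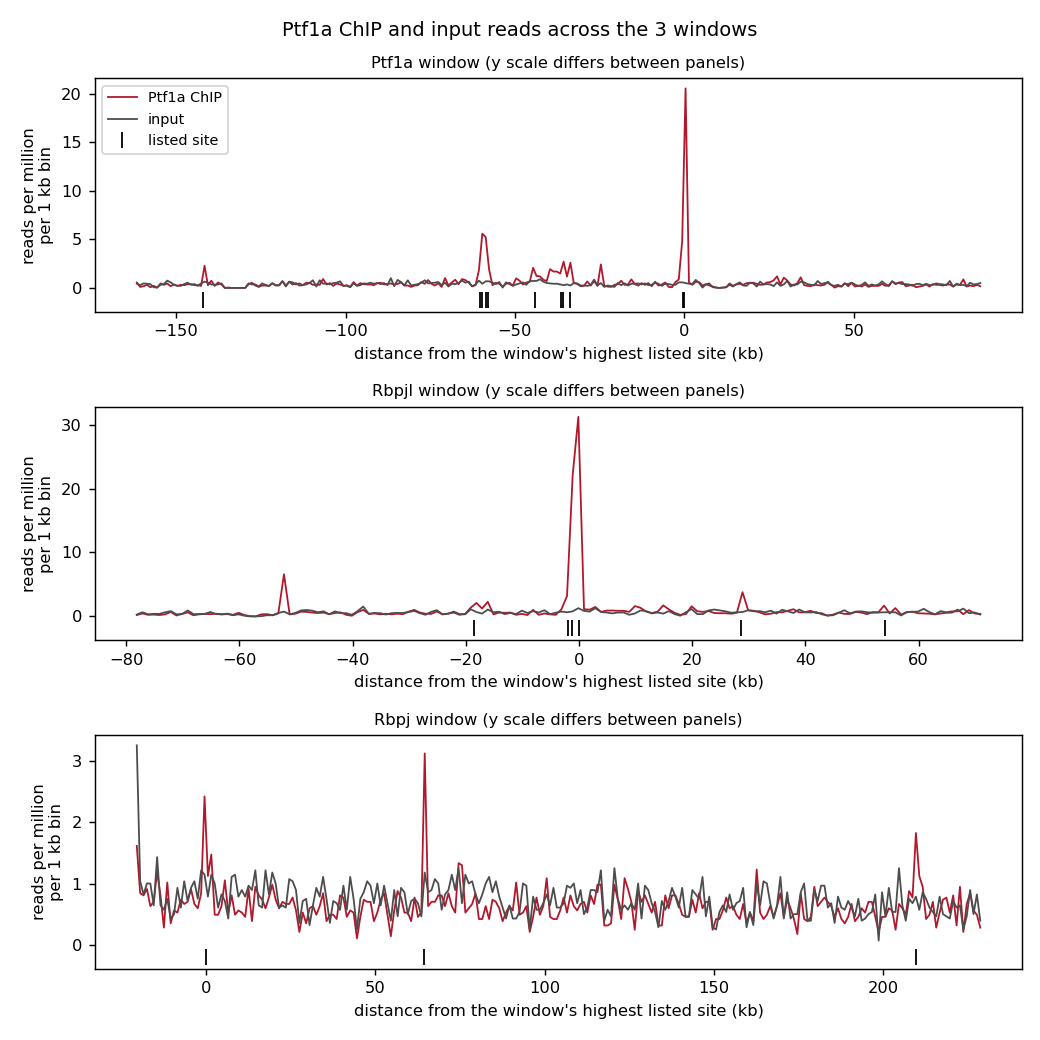
RPM (reads scaled to library size) in each 1 kb bin of the 3 windows (ChIP red, input grey), by distance in kb from the window's highest listed site (at Rbpj the one at 53770931, of 2 with equal height); ticks below mark listed sites and the vertical scale differs between panels. ChIP reads rise in narrow piles at Ptf1a and Rbpjl, whose fullest bins held 585 and 890 ChIP reads, while the fullest Rbpj bin held 89.

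At Rbpjl, binding was concentrated in one short stretch. The window had 6 listed sites, or 0.0400 per kb (0.0147 to 0.0871), with a median height of 54 and a highest of 274. Within 2.06 kb, from 164226657 to 164228717, 3 of them followed one another and held 1417 ChIP and 49 input reads (ratio 29.8, 22.4 to 40.4). Groups differ in length and in the share of it between sites, so their ratios do not rank them.

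The highest site, at 164228618, had a height of 274, which 239 listed sites exceeded. Its span held 376 ChIP and 3 input reads (ratio 129, 43.8 to 629, adjusted p = 7.65e-108 in the exact binomial test), and 696 and 4 reads lay within 100 bp to each side. The next, 1246 bp before it at 164227372, had a height of 241, with 221 ChIP and 4 input reads in the span (ratio 56.9, 21.9 to 211) and 546 against 7 within 100 bp to each side. They were above 99.2% and 98.5% of the list, and their intervals overlap. The first site of the stretch, at 164226657, was much lower, with a height of 46 and 28 ChIP against 0 input reads, at least 9.61-fold higher.

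The other Rbpjl sites were single and lower. At 164257283 the height was 62, with 36 ChIP and 5 input reads (ratio 7.41, 2.90 to 24.2). The site at 164210007 had a height of 26, with 30 ChIP and 8 input reads (ratio 3.86, 1.73 to 9.75). At 164282653 the height was 23, with 11 ChIP and 2 input reads (ratio 5.66, 1.24 to 52.6, adjusted p = 0.0221 in the exact binomial test). ChIP reads exceeded input at all 3, with ratios below those of the highest pair. The interval at 164257283 overlaps that at 164227372, and the interval at 164282653 overlaps those of both.

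**Figure D2:**
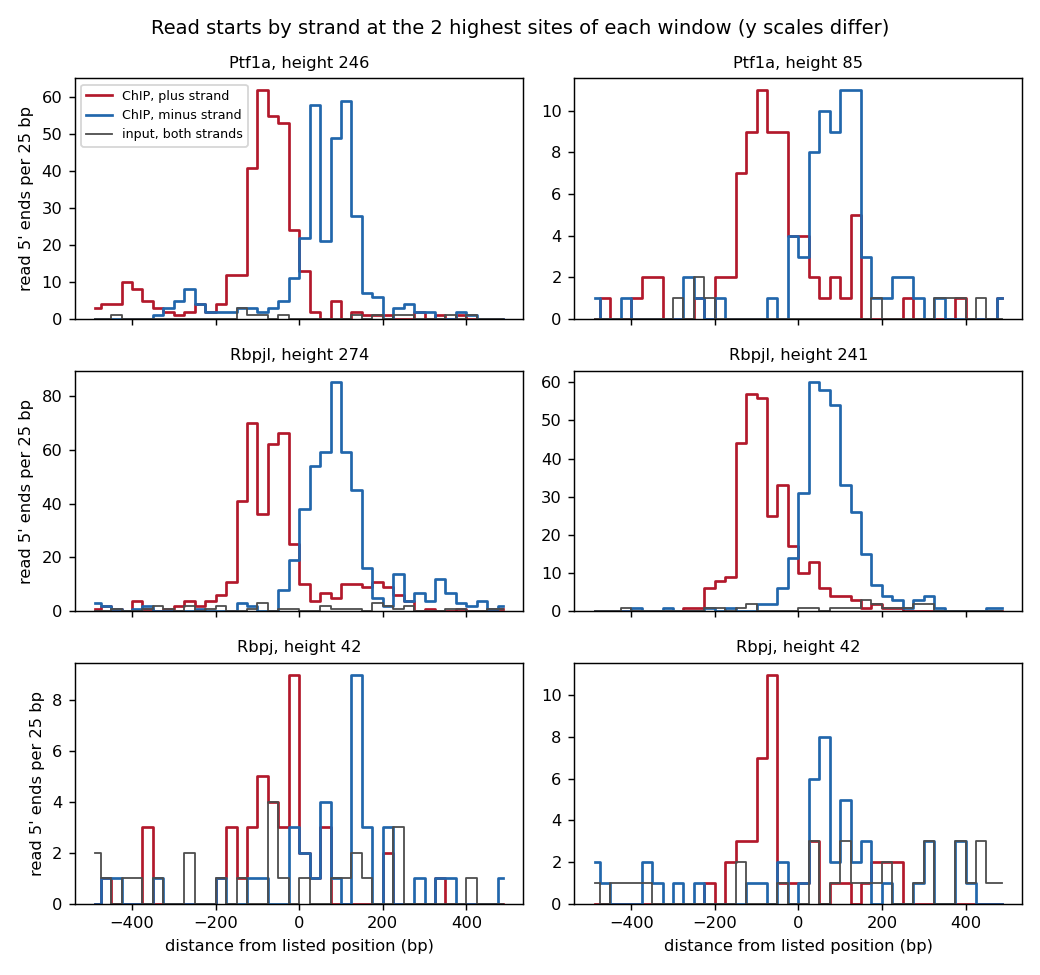
Starts of ChIP reads on the plus strand (red) and the minus strand (blue) and of input reads on both strands (grey), per 25 bp, around the 2 highest sites of each window; vertical scales differ. At the highest Ptf1a site and both Rbpjl sites, plus-strand starts lie before the listed position and minus-strand starts after it.

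Read starts of the 2 strands were offset around the high sites. The sites were listed from this same ChIP library, so the offset is no independent evidence of binding. At the Ptf1a site of height 246 the median start on the plus strand was at -69.5 bp from the listed position and the median on the minus strand at 83.0 bp. The strand medians were 143 bp apart at the Rbpjl site of height 274 and 157 bp apart at the one of height 241. At the 2 Rbpj sites of height 42 they were 171 and 134 bp apart, on fewer reads (42 on the plus strand and 36 on the minus strand within 500 bp of the first, 42 and 48 at the second). Input had only 6 to 20 reads per strand at these sites. Its strand medians were 64 bp apart at the Ptf1a site, -115 and 117 bp at the Rbpjl sites, and 205 and -25 bp at the Rbpj sites. A negative value means that the minus-strand median came first. At the first Rbpj site the offset thus did not separate ChIP from input. At the Ptf1a site of height 85 the medians were 155.5 bp apart in ChIP and 23 bp in input, on 5 and 4 input reads. At both Ptf1a sites and the Rbpjl site of height 241, input was offset the same way as ChIP, by less. The 3 highest member sites were also rich in repeated reads, at 50.4%, 58.5% and 53.7% of ChIP reads within 100 bp, against 10.2% in the whole library. Counts of distinct position and strand, 262, 289 and 253, give ranks of 461, 267 and 539.5 in the list, near those by height (402, 241 and 453). Counted by distinct position and strand, the listed spans of these 3 sites held 134 ChIP reads against 1 input read, 145 against 3 and 117 against 3. With 0.5 reads added to each count the ratios were then 98.3, 45.6 and 36.8, against 196, 111 and 50.7 with all reads.

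Within its window, Rbpj had fewer listed sites than Ptf1a or Rbpjl, and none as high as the highest there. There were 3, or 0.0120 per kb (0.00247 to 0.0351), each over 50 kb from the next. The sites at 53770931 and 53835426 both had a height of 42, with 32 ChIP against 8 input reads (ratio 4.12, 1.86 to 10.3) and 26 against 1 (ratio 26.8, 4.40 to 1098). The site at 53980563 had a height of 22, with 13 ChIP and 4 input reads (ratio 3.35, 1.03 to 14.1, adjusted p = 0.0464 in the exact binomial test). The median height was 42, against 36 in the whole list, and the sites of height 42 were above 57.7% of the list. None of the 3 reached a height of 100, a level held by 13.3% of the list, by 1 site at Ptf1a and by 2 at Rbpjl.

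The stretches next to the Rbpj window differed from it. The 250 kb before it held 13 listed sites with heights up to 161, and the 250 kb after it held 12 with heights up to 357. The latter, at 54068053 and 68.1 kb beyond the window's end, was exceeded by 13 of the 30691 listed sites, with 803 reads from ChIP and 5 from input (ratio 165, 70.6 to 511). It was higher than all 20 member sites. These stretches were added after the data had been seen, because without an mm9 annotation it could not be checked whether the whole Rbpj gene lies in its window. In the RefSeq annotation of GRCm38 the protein-coding genes next to Rbpj are Smim20 and Cckar, and no site was assigned to any of the 3 genes. RefSeq also lists 3 pseudogenes named after Rbpj, and how the authors placed reads that match several copies is not given in the sources used here.

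**Figure D3:**
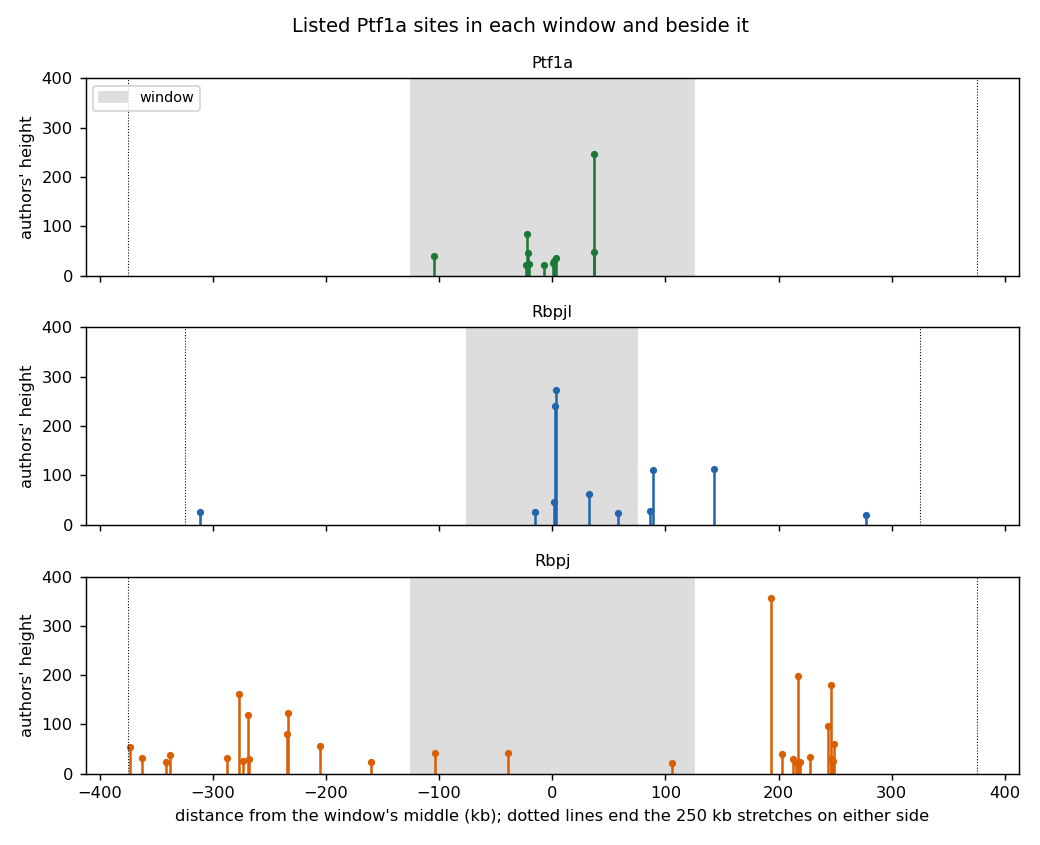
Heights the authors gave to listed sites (vertical lines) by distance in kb from each window's middle; grey marks the windows and dotted lines the ends of the 250 kb stretches beside them. The Ptf1a sites all lie inside the window, with none in either stretch. The Rbpj window holds 3 sites, of heights up to 42, between stretches of 13 and 12 sites.

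The loci were then compared with one another. Sites per kb at Ptf1a over those at Rbpjl gave 1.10 (exact interval 0.373 to 3.62), and Ptf1a over Rbpj gave 3.67 (0.969 to 20.5). For Rbpjl over Rbpj the ratio was 3.33 (0.712 to 20.6). With so few sites none of the 3 comparisons passed (adjusted p = 1, 0.133 and 0.133, two-sided exact conditional binomial test adjusted over the 3 pairs). With 250 kb added to each side the order turned. Sites then numbered 11 at Ptf1a, 11 at Rbpjl and 28 at Rbpj, and the rates at Ptf1a and Rbpjl were 0.393 and 0.453 times that at Rbpj. No test is given for these values, since the stretches were chosen after seeing the data. The order of the loci by density thus depended on the window. Listed sites also lie in groups and are not independent events, so the intervals of all these rates are too narrow.

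All windows of equal length over the genome give the background for these counts. Of 10070 windows of 250 kb, 6.47% held at least 11 sites and 37.8% at least 3, with a median of 1. Of 16775 windows of 150 kb, 9.17% held at least 6. The stretches before and after the Rbpj window, with 13 and 12 sites, had counts that 4.30% and 5.35% of such windows reached. Under 10% of windows thus reached the number of sites at Ptf1a or Rbpjl.

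Reads over whole windows also placed Rbpj lowest, and this order too turned with the stretches on either side. The Ptf1a window had 4213 ChIP and 2739 input reads (ratio 1.58, 1.51 to 1.66), the Rbpjl window 4401 and 2541 (ratio 1.78, 1.70 to 1.87) and the Rbpj window 4621 and 5221 (ratio 0.911, 0.876 to 0.948). Of windows of equal length, 1.75% had a ratio at least that of Ptf1a, 1.26% at least that of Rbpjl and 82.9% at least that of Rbpj. The ratio at Ptf1a was 1.74 times that at Rbpj (1.63 to 1.85, adjusted p = 2.60e-68, Fisher's exact test over the 3 pairs) and that at Rbpjl 1.96 times (1.84 to 2.08, adjusted p = 1.72e-98, Fisher's exact test). The ratio at Ptf1a was 0.888 times that at Rbpjl (0.829 to 0.952, adjusted p = 0.000697, Fisher's exact test). That last difference was not seen with 1 read per position and strand, at 0.996 times (adjusted p = 0.927, Fisher's exact test). With 250 kb added to each side the ratios were 1.17 (1.13 to 1.21) at Ptf1a, 1.197 (1.17 to 1.23) at Rbpjl and 1.24 (1.21 to 1.27) at Rbpj, which was then the highest. The intervals at Rbpjl and Rbpj overlap, so the order of these loci is not set.

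At Ptf1a and Rbpjl most of the excess lay at the listed sites, while the Rbpj window as a whole had no excess (ratio 0.911). Within 500 bp of them were 32.5% of the ChIP and 5.40% of the input reads of the Ptf1a window, 41.6% and 5.04% at Rbpjl, and 4.76% and 1.61% at Rbpj. Away from them the ratio was 1.13 (1.07 to 1.19) at Ptf1a, 1.10 (1.04 to 1.16) at Rbpjl and 0.882 (0.847 to 0.919) at Rbpj. These values at Ptf1a and Rbpjl still include piles of reads that are not listed. At Rbpjl the bin from 164176001 alone held 188 ChIP and 21 input reads, so the values do not show a general rise between sites. The stretches on either side of the Ptf1a window had ratios of 0.860 and 0.947. Input depth also differed between the loci, with 10.96 input reads per kb at Ptf1a, 16.9 at Rbpjl and 20.9 at Rbpj, against a median of 10.2 over windows of 250 kb. Depth at Rbpj was reached by 3.99% of such windows. Its part in the lower ratio was not tested.

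Tested site by site over the whole list, 91.6% of the entries showed an excess of ChIP over input (exact binomial test, adjusted p under 0.05). So did 17 of the 20 member sites, a share near that background: 8 of 11 at Ptf1a, 6 of 6 at Rbpjl and 3 of 3 at Rbpj. The list was made from this ChIP library, so these calls are no independent evidence of binding. Within 100 bp to each side all 20 passed, as did 97.7% of the list, with ratios from 2.13 to 179 at the 19 that had input reads.

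**Figure D4:**
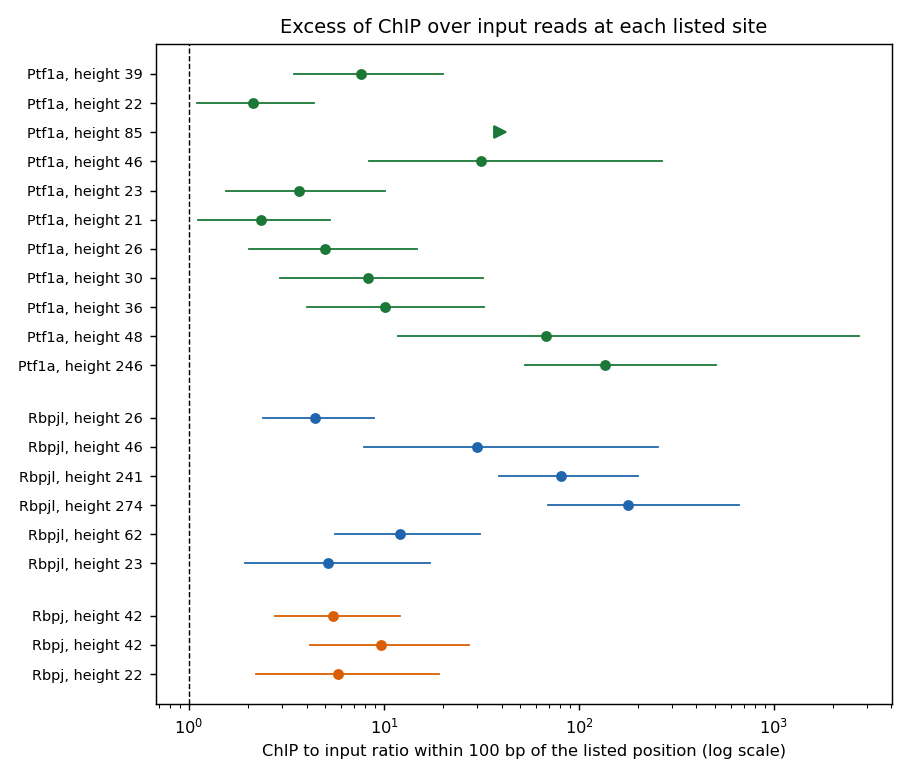
Ratio of ChIP to input reads within 100 bp of each of the 20 listed sites on a log scale, in genome order within each locus; points are ratios, lines exact 95% intervals, and the triangle is the lower bound of the site without input reads. The sites of heights 246, 241 and 274 have lower limits of 38.7 or more, above the whole interval of most other sites.

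Bins of 1 kb were laid without the list, which entered only through the expected ratio of 0.971. Over the genome 1.73% of 2004567 tested bins had more ChIP than input reads, and 0.225% had fewer (exact binomial test, adjusted p under 0.05, bins with at least 10 reads). At Ptf1a 16 of 224 tested bins had more (7.14%, Wilson interval 4.44 to 11.3%), at Rbpjl 11 of 146 (7.53%, 4.26 to 12.99%) and at Rbpj 3 of 249 (1.205%, 0.411 to 3.48%). The odds at Ptf1a were 6.29 times those at Rbpj (1.76 to 34.1, adjusted p = 0.00234, Fisher's exact test over the 3 pairs) and the odds at Rbpjl 6.65 times those at Rbpj (1.72 to 37.8, adjusted p = 0.00234, Fisher's exact test). Neighbouring bins share fragments, so these intervals are too narrow. With 250 kb added to each side the shares were 2.58% of 619 bins at Ptf1a, 2.90% of 620 at Rbpjl and 4.43% of 723 at Rbpj. In the stretches before and after the Rbpj window 6.12% and 6.11% of bins passed, and beside the Ptf1a window 0 of 192 and 0 of 203 did. Fewer ChIP than input reads were found in 1 bin at Rbpjl (10 against 34) and 1 at Rbpj (46 against 91).

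At Ptf1a and Rbpjl the bins with the firmest excess held the high sites. At Ptf1a the bin from 19412001 to 19413000 held 585 ChIP and 14 input reads (ratio 43.0, 25.4 to 79.2), and that from 19352001 to 19353000 held 159 and 12 (ratio 13.6, 7.60 to 27.0). At Rbpjl the bins from 164227001 to 164228000 and from 164228001 to 164229000 held 631 against 22 and 890 against 36 reads. At Rbpj the 2 bins with the highest lower limit of the ratio, from 53835001 and from 53980001, held sites of heights 42 and 22, with 89 against 33 and 52 against 22 reads. The bin from 53770001, with the other site of height 42, held 69 against 32 reads.

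Some bins passed with no listed site in them or beside them, 3 of 16 at Ptf1a, 4 of 11 at Rbpjl and 0 of 3 at Rbpj. The share of such bins among all passing bins of the genome is not given here, so these counts have no background. The clearest of these bins was at Rbpjl from 164176001 to 164177000, with 188 ChIP and 21 input reads (ratio 9.22, 5.86 to 15.2). Its reads piled up at 164176596, where 111 distinct ChIP and 5 distinct input reads lay within 100 bp, 33.4 kb from the nearest listed site. The Ptf1a site of height 85 had fewer, 98, but these were counted at its listed position and not at a fullest point sought within the bin. The bins from 164238001 and from 164243001 held 46 against 13 and 49 against 12 reads. At Ptf1a such a bin lay from 19387001 to 19388000, with 69 ChIP and 14 input reads (ratio 5.08, 2.83 to 9.76) and 43 distinct ChIP reads at its fullest point. The others there, from 19372001 and 19373001, lay inside the low and broad group, with 55 against 13 and 48 against 12 reads.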

How the data were processed

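The authors deposited both libraries as counts of single placed reads, 1 line of value 1 per 37 bp read, not normalized (build mm9, per the submitters' processing notes). They also deposited a list of peaks, each a signal value (the height) on a 100 bp span, per the file headers. For the aligner, read filters and peak caller nothing is given in the sources used here.

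Each read's 5′ end was moved 73 bp downstream and counted in spans, windows and 1 kb bins (Python 3.11.15, scipy 1.17.1). ChIP was tested against input with the exact binomial test, Benjamini-Hochberg adjusted over all 30691 sites or all bins with at least 10 reads. Ratios at sites use the counts as they stand, and an input count of 0 was set to 3 reads. The members and lists were chosen with earlier results of these data known. Named were all sites of windows with 8 or fewer, otherwise the 5 highest, the lowest and the lowest ratio; at Ptf1a further sites of the groups were named after their values were seen, as were the sites beside the windows and the bins other than the 2 leading ones and up to 3 without a site. The tests were checked on simulated independent counts, which hold no repeated reads, so the check does not cover their effect. Alternatives were other windows, distinct reads, unmoved ends, local input, total-read scaling, height limits and joined sites.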

Additional observations from a re-analysis of the deposited data

How the results depend on the processing

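With 250 kb to each side, the density was 0.0147 sites per kb at Ptf1a, 0.0169 at Rbpjl and 0.0373 at Rbpj, and the ratios were 0.867 (Ptf1a over Rbpjl), 0.393 (Ptf1a over Rbpj) and 0.453 (Rbpjl over Rbpj), all 3 turned by the sites the added stretches hold. Window ratios were then 1.17, 1.197 and 1.24 at Ptf1a, Rbpjl and Rbpj, and 0.976 (Ptf1a over Rbpjl), 0.942 (Ptf1a over Rbpj) and 0.965 (Rbpjl over Rbpj). Heights of 30 or more left 0.0280 per kb at Ptf1a. Heights of 50 or more left 0.00800 at Ptf1a, 0.0200 at Rbpjl and 0 at Rbpj, so Ptf1a over Rbpjl became 0.400 and ratios over Rbpj had no value. With sites within 500 bp joined, Ptf1a over Rbpjl was 0.900; with no form of this ratio past the threshold, its direction is not set.

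Window ratios with 1 read per position and strand were 1.496 at Ptf1a and 1.501 at Rbpjl, and Ptf1a over Rbpjl was 0.996; the cause was not tested. Scaled by total reads they were 1.51 at Ptf1a and 0.868 at Rbpj. Without reads near listed sites they were 1.13 and 1.10 at Ptf1a and Rbpjl, and the first over the second was 1.03 (adjusted p = 0.468, Fisher's exact test).

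Of the 20 sites, 15 passed for more ChIP than input reads under the main setting and all 5 alternatives (exact binomial test, adjusted p under 0.05). Under single settings, from 82.0% (unmoved ends) to 99.4% (local input) of the whole list passed. The share of the list that passed under all settings is not given here, so the count of 15 has no background. The Ptf1a sites at 19351705, 19354240 and 19368001 passed within 100 bp to each side and against local input. In those settings 97.7% and 99.4% of the list passed. The site at 19376187 did not pass with unmoved ends (adjusted p = 0.349), nor that at 53980563 with distinct reads (0.0555) or total-read scaling (0.0587), in the exact binomial test. Inside the windows, counts of passing bins and ranks of the highest sites stayed within 1.5 times under each alternative run. With 250 kb added to each side, 16 bins passed at Ptf1a, 18 at Rbpjl and 32 at Rbpj, against 16, 11 and 3 in the windows. With 1 library per group no replicate could be left out. No paired analysis was possible because each group has 1 library.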

Other observations

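Beside the Rbpj window, outside the 20 sites, Ptf1a sites of middle and high rank lay in short groups. After the window's end the sites at 54092041 and 54121576 had heights of 199 and 180, with 198 ChIP and 8 input reads (ratio 25.5, 95% limits 12.7 and 59.9) and 184 and 5 reads (ratio 37.9, 15.9 to 118). The stretch as a whole had 7434 ChIP and 4407 input reads (ratio 1.74, 1.67 to 1.80). Before the window the highest sites were at 53597962, 53641140 and 53606380, with heights of 161, 124 and 120. That stretch had 6949 ChIP and 6148 input reads (ratio 1.16, 1.125 to 1.205). After the Rbpjl window, sites at 164313696 and 164367863 had heights of 112 and 114, with 80 against 4 and 180 against 0 reads. No site of these stretches was assigned to a gene.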
